A study of Homo sapiens with 9 samples.

Results

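RELN, CADPS, KCNJ3 and LYPD1, which are best known from neurons, were followed in Huh7 hepatocellular carcinoma (HCC) cells after siRNA-mediated ablation of LATS1 or LATS2, together with the reelin receptors VLDLR and LRP8 and the reelin adaptor DAB1. These 7 of the 20575 genes listed for each sample were found by their Entrez numbers, 5649 for RELN, 8618 for CADPS, 3760 for KCNJ3, 116372 for LYPD1, 7436 for VLDLR, 7804 for LRP8 and 1600 for DAB1. RELN, CADPS, KCNJ3 and LYPD1 were selected on their higher level in siLATS1 than in siControl in these same samples, so that difference is given as a description with no test. VLDLR, LRP8 and DAB1 were taken for their role in reelin signaling.

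Huh7 is an established human HCC line. Its cells were transfected with a non-targeting siRNA pool (siControl), a pool against LATS1 (siLATS1) or a pool against LATS2 (siLATS2), with 3 samples of each, 9 in all, and RNA was taken 48 h later. The labels of these samples name no drug, whereas the text of the study ties its Huh7 RNA-seq to sorafenib as well as to the siRNAs, so whether these cells had also received sorafenib is not settled by the sources used here. Each group is 1 cell line and 1 siRNA pool. The study calls its RNA samples biological triplicates, and the labels number them as replicates without naming separate cultures.

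Reelin, the product of RELN, is a large secreted glycoprotein that guides migrating neurons in the developing cortex. It binds the lipoprotein receptors VLDLR and LRP8 (also called ApoER2), whereupon Src family kinases phosphorylate DAB1 on the inner side of the membrane and pass the signal on. In the liver, reelin is known from hepatic stellate cells. CADPS primes dense-core vesicles for calcium-triggered release, KCNJ3 is a subunit of G protein-gated inward rectifier potassium channels (GIRK), and LYPD1 is a GPI-anchored protein of the Ly6 family that binds nicotinic acetylcholine receptors. LATS1 and LATS2 are the kinases of the Hippo pathway that phosphorylate YAP and TAZ.

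The siLATS1 pool is shown because it defines the group in which the 4 genes were high. Its 4 siRNAs of 19 bases, written 5′ to 3′ in the sense of the target, each had an exact match in annotated transcripts of LATS1 and of no other gene, and none of the 4 matched a transcript of the 7 genes exactly.
siLATS1 siRNA 1: ggugaagucugucuagcaa
siLATS1 siRNA 2: uagcauggauuucaguaau
siLATS1 siRNA 3: gguaguucgucuauauuau
siLATS1 siRNA 4: gaaugguacuggacaaacu

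RNA-seq values were deposited as CPM, the reads of a gene relative to all reads counted in its sample. A TMM factor (trimmed mean of M values) was applied to each library here, and the depth was about 23550000 to 32190000 reads per sample. siControl replicate 1 stood apart from the other libraries. Its log2(CPM + 1) correlated across genes with siControl replicates 2 and 3 at Pearson's r of 0.859 and 0.866, against 0.995 between those samples, with genes not independent replicates. It held 5.58 CPM of TUBB3 and 2.99 CPM of APOE, against at least 80.6 and 44.1 CPM in the other 8 libraries. Fold differences from siControl are therefore also given without it for the 7 genes. LATS1 was at 27.1, 20.1 and 15.6 CPM in the siLATS1 samples and at 110, 55.2 and 62.9 CPM in siControl, so the targeted transcript was lower in every siLATS1 sample (log2 fold change -1.78, standard error 0.31, adjusted p = 0.13 from limma, and -1.50 without siControl replicate 1). In siLATS2, LATS1 was at 54.7, 78.6 and 51.2 CPM and overlapped siControl. LATS2 was not analysed here, so the effect of the siLATS2 pool on its own target is not shown by these values. Of that pool, siRNAs 2, 3 and 4 matched annotated transcripts of LATS2 alone exactly, and siRNA 1 had no exact match in any gene.

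RELN was the member with the largest difference. It was at 2.5, 2.93 and 3.43 CPM in siControl replicates 1, 2 and 3, at 15, 19.8 and 16.7 CPM in siLATS1, and at 4.69, 4.37 and 6.96 CPM in siLATS2. The groups followed the order siControl, siLATS2, siLATS1 with no overlap between neighbours. The mean of 17.2 ± 2.45 CPM (SD, n = 3) in siLATS1 was 5.81 times the 2.96 ± 0.464 CPM (SD, n = 3) of siControl, and rested on 416 to 555 reads per sample. On the log2(CPM + 1) scale, which understates the change of low genes, the difference was 2.20 (standard error 0.20). Without siControl replicate 1 it was 2.11. In bulk RNA, more cells with RELN and more RELN per cell cannot be told apart.

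The samples of siLATS2 were not used to choose the genes, but those of siControl were, and a choice for low siControl levels favours a higher level in siLATS2. The p-values of RELN, CADPS, KCNJ3 and LYPD1 in siLATS2 against siControl are therefore not independent of the choice. The level of RELN in siLATS2 was 1.81 times that in siControl. On the log2 scale the difference was 0.67 (standard error 0.20, limma p = 0.011, adjusted p = 0.95, exact permutation p = 0.1). Exact permutation tests were two-sided throughout, and with 3 samples in each group they cannot give a p below 0.1. RELN passed the threshold of the study, which asks for an unadjusted p under 0.05 and an absolute difference of 0.58 or more on the log2 scale. RELN was the only one of the 7 genes to pass in this comparison, in which 0.271% of the 12901 tested genes passed and 0.217% passed with a higher level. None of the 12901 genes passed with an adjusted p in limma, against 110 at an unadjusted p alone, and edgeR and DESeq2 also gave 0. Without siControl replicate 1 the log2 fold change of RELN was 0.57, and without siLATS2 replicate 3 it was 0.49. Both lie under the fold threshold, so the call rested on each of these libraries.

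VLDLR, LRP8 and DAB1, which receive the reelin signal, lay on the other side of siControl from RELN after ablation of LATS1. All 3 genes had no siLATS1 sample above the lowest siControl sample. Over all tested genes, 2.71% lay lower in siLATS1 in this way without overlap, and 5.77% lay higher, as RELN, CADPS, KCNJ3 and LYPD1 did. 

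LRP8, the reelin receptor of adult synapses, was at 68.3, 56.0 and 55.2 CPM in siControl, at 42.7, 41.5 and 34.7 CPM in siLATS1 and at 50.8, 52.8 and 47.6 CPM in siLATS2. The order was the reverse of that of RELN, again without overlap between neighbours. LRP8 passed the threshold of the study in siLATS1 against siControl. Its log2 fold change of -0.58 (standard error 0.15, limma p = 0.0044, adjusted p = 0.36, exact permutation p = 0.1) lies at the fold threshold itself. In this comparison 2.91% of the tested genes passed, 0.589% with a lower level. The value was -0.50 without siControl replicate 1, -0.48 without siLATS1 replicate 3 and -0.49 on CPM with no TMM factor, so the call was lost in each of these although the unadjusted p stayed under 0.05 (0.0069, 0.026 and 0.0068). Between siLATS2 and siControl the log2 difference was -0.24 (standard error 0.15, limma p = 0.15, exact permutation p = 0.1) and, without siControl replicate 1, -0.16, and between siLATS1 and siLATS2 it was -0.34 (standard error 0.15, limma p = 0.051, exact permutation p = 0.1). Neither passed the threshold. Over all tested genes 1.86% passed between siLATS1 and siLATS2, 0.519% with a lower level in siLATS1, and of VLDLR, LRP8 and DAB1 none did.

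DAB1, the cytoplasmic adaptor, was the least abundant of the receiving genes. Its levels were 1.80, 1.89 and 1.29 CPM in siControl, 1.09, 0.965 and 0.884 CPM in siLATS1 and 1.37, 1.20 and 1.47 CPM in siLATS2, so siLATS1 lay below both other groups and siLATS2 overlapped siControl. These values rest on 22 to 32 reads per siLATS1 sample and 35 to 47 reads per siControl sample. The mean in siLATS1 was 0.591 times that in siControl, and 0.617 times without siControl replicate 1. The log2 fold change of -0.42 (standard error 0.13, limma p = 0.011, adjusted p = 0.54, exact permutation p = 0.1) missed the fold threshold. With a pseudocount of 0.1 in place of 1 it was -0.69 and with edgeR on the reads -0.78, both past it. Between siLATS1 and siLATS2 the log2 fold change was -0.24 (standard error 0.13, limma p = 0.095, exact permutation p = 0.1).

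VLDLR, the second reelin receptor, which also takes up triglyceride-rich lipoproteins, differed least. It was at 23.6, 18.4 and 18.0 CPM in siControl, at 15.8, 17.7 and 14.5 CPM in siLATS1 and at 18.5, 18.0 and 16.7 CPM in siLATS2. The siLATS1 samples lay below those of siControl, but the highest of them came close to the lowest siControl sample. The log2 fold change of -0.30 (standard error 0.17, limma p = 0.11, adjusted p = 0.98, exact permutation p = 0.1) did not pass, and without siControl replicate 1 it was -0.19. In siLATS2 the value was -0.15 (standard error 0.17, limma p = 0.39, exact permutation p = 0.5), with overlap, and -0.05 without siControl replicate 1.

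**Figure D1:**
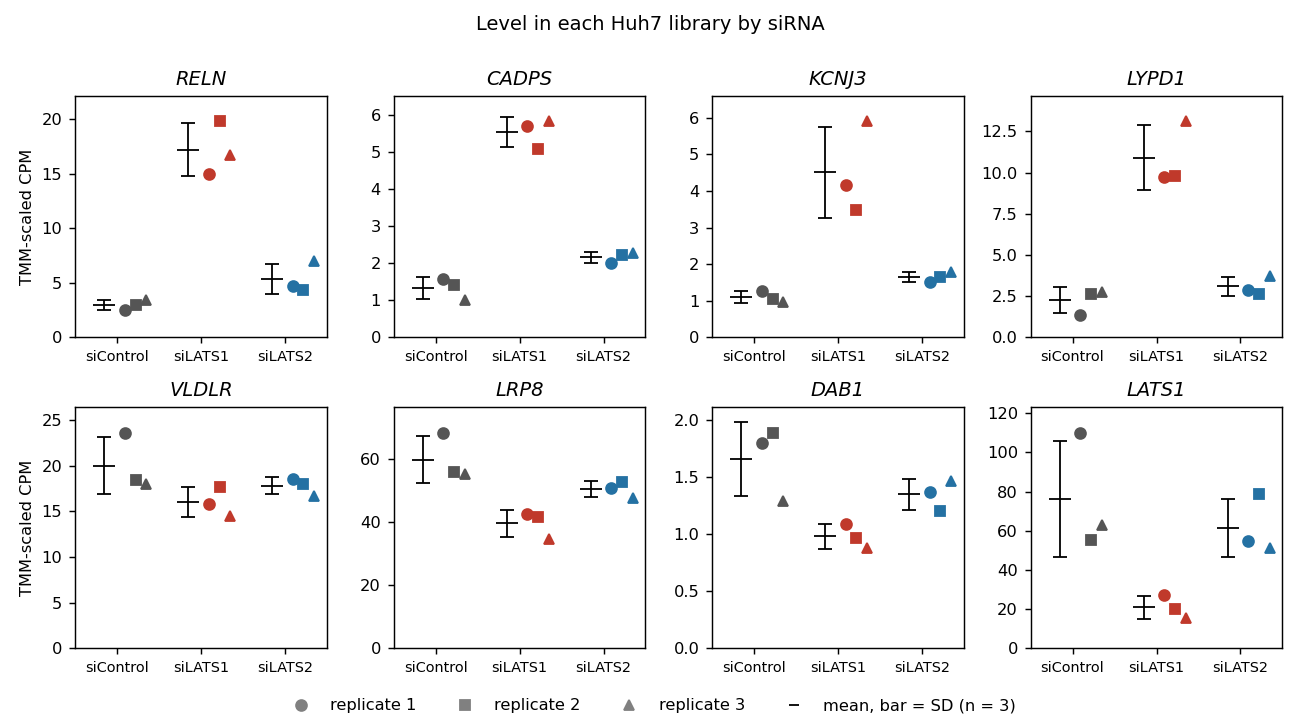
TMM-scaled CPM (y axis, from 0) of the 7 genes and of LATS1 in each library, by siRNA group (x axis). Each point is 1 library, its shape gives the replicate number, and the line and bar give the mean and SD of 3. RELN, CADPS, KCNJ3 and LYPD1 lie higher in all 3 siLATS1 libraries than in any other library, while VLDLR, LRP8 and DAB1 lie lower there than in any siControl library.

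Compared per length of the annotated transcript, the ligand and its receptors were brought closer together in siLATS1. In siControl the order of the mean levels was LRP8 at 7.77 ± 0.959, VLDLR at 2.17 ± 0.340, LYPD1 at 0.653 ± 0.226, DAB1 at 0.313 ± 0.0609, RELN at 0.252 ± 0.0396, CADPS at 0.241 ± 0.0546 and KCNJ3 at 0.236 ± 0.0352 CPM per kb (SD, n = 3). The last 4 of these overlapped one another. In siLATS1, LRP8 was at 5.14 ± 0.559, LYPD1 at 3.14 ± 0.568, VLDLR at 1.74 ± 0.178, RELN at 1.47 ± 0.209, CADPS at 1.01 ± 0.0732, KCNJ3 at 0.975 ± 0.271 and DAB1 at 0.185 ± 0.0200 CPM per kb. LYPD1 had thus moved above VLDLR, while RELN overlapped VLDLR and DAB1 was the lowest.

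The level of RELN per kb was 2.41%, 3.45% and 4.09% of that of LRP8 in siControl, 23.1%, 31.5% and 31.7% in siLATS1 and 6.08%, 5.46% and 9.62% in siLATS2. Relative to VLDLR it was 8.35% to 15% in siControl, 74.8% to 90.9% in siLATS1 and 19.1% to 32.8% in siLATS2. For both receptors siLATS1 lay highest, then siLATS2, then siControl, without overlap. These ratios include the difference of RELN that chose the gene. The lengths are those of the reference transcript of each gene, 11.71 kb for RELN, 7.70 kb for LRP8 and 9.21 kb for VLDLR, and which transcripts Huh7 cells make was not measured.

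**Figure D2:**
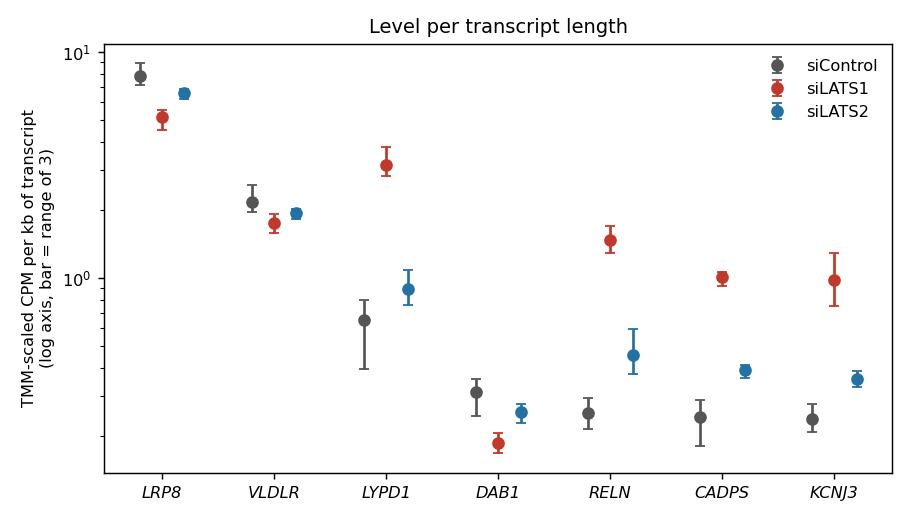
Mean TMM-scaled CPM per kb of reference transcript (y axis, log scale) of the 7 genes (x axis) in the 3 siRNA groups, with bars for the range of 3 libraries. LRP8 is the highest gene in every group, and RELN moves from 0.252 CPM per kb in siControl to 1.47 in siLATS1, where its range overlaps that of VLDLR.

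CADPS, KCNJ3 and LYPD1 showed the same order of siLATS1 above the other groups as RELN. CADPS was at 1.58, 1.41 and 0.996 CPM in siControl, at 5.71, 5.07 and 5.82 CPM in siLATS1 and at 1.99, 2.22 and 2.26 CPM in siLATS2. The siLATS1 mean was 4.17 times that of siControl, or 4.61 times without siControl replicate 1, and the siLATS1 samples lay closer together than those of the other 3 raised genes, at 5.54 ± 0.403 CPM (SD, n = 3). Every siLATS2 sample was above every siControl sample. The log2 fold change of 0.45 (standard error 0.14, limma p = 0.013, adjusted p = 0.95, exact permutation p = 0.1) missed the fold threshold, also without siControl replicate 1, at 0.52. The value was 0.68 with a pseudocount of 0.1 and 0.67 with edgeR, both past it.

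KCNJ3 was at 1.27, 1.04 and 0.959 CPM in siControl, at 4.17, 3.47 and 5.90 CPM in siLATS1 and at 1.52, 1.64 and 1.79 CPM in siLATS2. All 3 groups were apart, and the siLATS1 samples spread more than those of CADPS. The siLATS1 mean was 4.13 times that of siControl, which rested on 26 to 29 reads per sample, and 4.51 times without siControl replicate 1. In siLATS2 the log2 fold change was 0.34 (standard error 0.17, limma p = 0.083, adjusted p = 0.95, exact permutation p = 0.1), which did not pass, and 0.40 without siControl replicate 1.

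LYPD1 was at 1.36, 2.65 and 2.77 CPM in siControl, at 9.71, 9.76 and 13.1 CPM in siLATS1 and at 2.89, 2.62 and 3.73 CPM in siLATS2. The siLATS1 samples stood clear of both other groups, at 4.81 times the siControl mean, whereas siLATS2 overlapped siControl. The lowest sample of all was siControl replicate 1, and without it siLATS1 was at 4.01 times the mean of the siControl samples. In siLATS2 the log2 fold change was 0.35 (standard error 0.23, limma p = 0.17, exact permutation p = 0.3) with that library and 0.12 without it. The last exon of LYPD1 overlaps that of GPR39, a zinc-sensing receptor gene on the other strand. Of the 7 genes, KCNJ3 alone had no annotated gene on the other strand within its span. Whether reads were counted by strand is not given in the sources used here, and without strand the reads of such a pair cannot be told apart where their exons overlap. GPR39 itself had 5.19 CPM on average in siControl and 6.28 CPM in siLATS1, with overlap (log2 fold change 0.25, standard error 0.22, limma p = 0.29, exact permutation p = 0.4).

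Set side by side, siLATS1 exceeded siLATS2 by log2 differences of 1.53 (standard error 0.20) in RELN, 1.54 (0.23) in LYPD1, 1.05 (0.14) in CADPS and 1.03 (0.17) in KCNJ3. Every siLATS1 sample was above every siLATS2 sample in all 4 genes, as in 5.8% of the tested genes, and every one was lower in LRP8 and DAB1, as in 6.64%. The differences of the 4 genes use the siLATS1 samples that chose the genes and are given without a test. In siLATS2 against siControl, RELN, CADPS and KCNJ3 were higher in every sample, where 2.87% of the tested genes were, and LRP8 was lower in every sample, where 0.643% were. LYPD1, VLDLR and DAB1 overlapped. The siLATS1 and siLATS2 comparisons share the siControl samples. Each of the 7 genes was at or above 1 CPM in all 3 siLATS2 libraries and so passed the filter on low values by these alone.

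**Figure D3:**
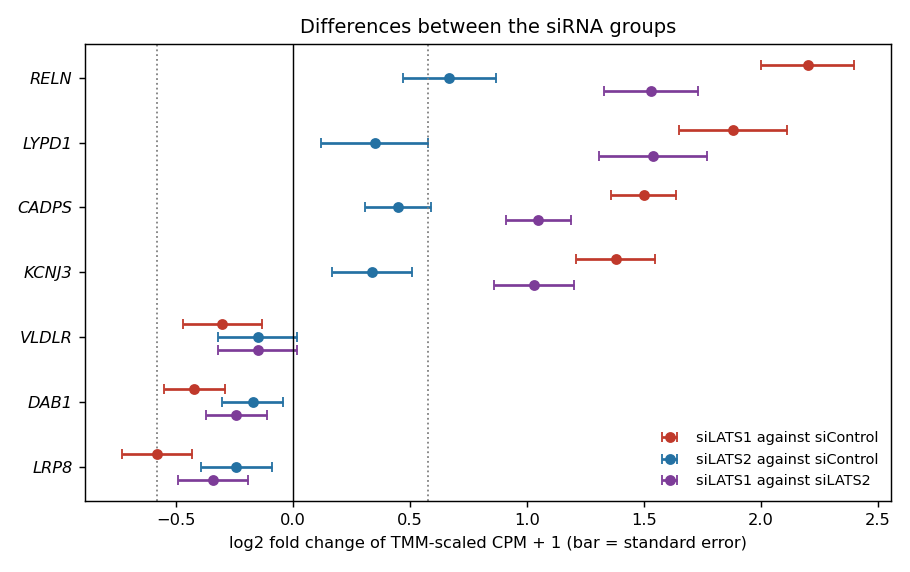
Log2 fold change of TMM-scaled CPM + 1 (x axis) of each gene (y axis) in the 3 comparisons, with bars for the standard error and dotted lines at the fold threshold of 0.58 in either direction. In siLATS1 against siControl, RELN, LYPD1, CADPS and KCNJ3 lie at 1.38 to 2.20, and VLDLR, DAB1 and LRP8 at -0.58 to -0.30.

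Replicates of a group did not deviate from their means alike in all genes. Replicate 3 of siLATS2 had the highest level of RELN, CADPS, KCNJ3 and LYPD1 in its group and the lowest of VLDLR and LRP8. Replicate 3 of siLATS1 had the highest level of CADPS, KCNJ3 and LYPD1 in its group and the lowest of VLDLR, LRP8 and DAB1. siControl replicate 1 had the lowest level of RELN and LYPD1 and the highest of VLDLR and LRP8 among siControl, yet also the highest of CADPS and KCNJ3. The same libraries were at the ends of TUBB3, with 5.58 CPM in siControl replicate 1, 260 CPM in siLATS1 replicate 3 and 186 CPM in siLATS2 replicate 3, each the lowest or highest of its group. The part of this spread between libraries in the results was not tested.

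The promoters of the 4 genes that were high in siLATS1 are shown to compare the sequence at their start sites. Each is the 250 bases before a transcription start site of RefSeq, 5′ to 3′ on the strand of the gene, from the GRCh38.p14 table, and each was matched exactly to GRCh37, the build the authors mapped to, which gives the coordinates. RELN lies on chromosome 7 from 103111828 to 103630105, minus strand, and its window is chr7:103630106-103630355. CADPS lies on chromosome 3 from 62384021 to 62861091, minus strand, with the window chr3:62861092-62861341. KCNJ3 lies on chromosome 2 from 155554367 to 155714866, plus strand, with the window chr2:155554957-155555206. This window lies inside the GENCODE span of KCNJ3, which begins before the RefSeq start site used. LYPD1 lies on chromosome 2 from 133400859 to 133429152, minus strand. It has 2 start sites in RefSeq, and the window of the first one, chr2:133429100-133429349, is printed. That window also reaches into the GENCODE span of LYPD1. Capitals mark matches to TGANTCA, the AP-1 motif. Of the genes that receive the signal, LRP8 lies on chromosome 1 from 53708036 to 53794141, minus strand, DAB1 on chromosome 1 from 57460451 to 59012406, minus strand, and VLDLR on chromosome 9 from 2621182 to 2660056, plus strand.
RELN promoter: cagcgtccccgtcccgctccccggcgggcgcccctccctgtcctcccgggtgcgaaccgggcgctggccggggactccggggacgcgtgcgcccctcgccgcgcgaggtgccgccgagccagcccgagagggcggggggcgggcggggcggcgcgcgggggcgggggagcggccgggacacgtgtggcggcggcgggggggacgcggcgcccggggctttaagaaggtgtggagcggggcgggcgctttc
CADPS promoter: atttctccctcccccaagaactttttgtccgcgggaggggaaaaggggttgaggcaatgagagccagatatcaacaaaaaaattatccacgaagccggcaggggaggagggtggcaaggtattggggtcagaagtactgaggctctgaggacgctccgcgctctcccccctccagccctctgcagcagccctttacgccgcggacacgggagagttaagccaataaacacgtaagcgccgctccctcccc
KCNJ3 promoter: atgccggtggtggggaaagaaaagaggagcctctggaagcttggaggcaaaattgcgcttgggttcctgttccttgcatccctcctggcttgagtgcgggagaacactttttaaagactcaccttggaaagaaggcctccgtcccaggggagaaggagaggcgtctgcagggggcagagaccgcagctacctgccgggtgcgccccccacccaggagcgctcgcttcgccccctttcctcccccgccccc
LYPD1 promoter: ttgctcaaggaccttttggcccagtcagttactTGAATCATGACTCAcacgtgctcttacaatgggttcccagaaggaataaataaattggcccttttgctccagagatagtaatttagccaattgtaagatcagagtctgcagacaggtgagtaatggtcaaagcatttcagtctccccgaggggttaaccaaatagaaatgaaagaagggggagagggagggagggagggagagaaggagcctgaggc

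The windows differed in base composition, most of all those of RELN and the printed LYPD1 window. The second LYPD1 window, which is not printed, had 65.6% G and C and 18 CpG. G and C made up 83.2% of the RELN window, which held 43 CpG, against 58% and 14 CpG in CADPS, 62.4% and 12 CpG in KCNJ3 and 46.8% and 2 CpG in the printed LYPD1 window. The median over 35116 promoters was 58%. Both strands were searched for GGAATG, the core motif of the TEAD factors through which YAP acts, for TGANTCA, and for TTCAGCACC and GGACAGC, the left and right parts of the RE1 element bound by the neuronal gene repressor REST. The windows of RELN, CADPS and KCNJ3 and the second LYPD1 window held no match to any of them. Only exact matches were sought, and sequence outside the windows was not searched, so sites elsewhere in or around these genes were not looked at. The first LYPD1 window held 2 matches to TGANTCA, which lie side by side 217 and 210 bases before the start. Of all promoters 11.9% held GGAATG, 6.57% TGANTCA, 0.288% TTCAGCACC and 4.76% GGACAGC. Of the other 3 genes, only DAB1 had matches, 2 to GGAATG in the second of its 6 promoter windows.

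Genes around the members were then counted in lists by role. The list of other reelin pathway genes held 38 genes, among them further ligands of the receptors, kinases, effectors of DAB1 and enzymes that cleave reelin. Of these, 35 passed the filter. FYN, the Src family kinase that phosphorylates DAB1, was the only one to pass the threshold in siLATS1, a share of 2.86% against 2.91% of all tested genes (2.33% with a higher level), so the list was called about as often as the background. Its median log2 fold change was -0.04, against 0.02 over all tested genes. FYN was at 8.65, 11.4 and 11.5 CPM in siControl, at 15.7, 15.6 and 18.9 CPM in siLATS1 and at 13.1, 11.8 and 16.9 CPM in siLATS2. Its siLATS1 samples were above all siControl samples (log2 fold change 0.62, standard error 0.20, limma p = 0.012, adjusted p = 0.55, exact permutation p = 0.1). The call was absent without siControl replicate 1 and without siLATS1 replicate 3.

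The other Src family kinases of the list did not pass. SRC had a log2 fold change of 0.53 (standard error 0.46) and YES1 of -0.29 (standard error 0.33) in siLATS1. Both overlapped siControl, and in both siControl replicate 1 stood apart. SRC was at 9.62 CPM in that library, 34.3 and 32.0 CPM in siControl replicates 2 and 3, and 27.3 to 44.7 CPM in siLATS1. YES1 was at 106 CPM in that library, 50.6 and 60.2 CPM in siControl replicates 2 and 3, and 40.8 to 71.7 CPM in siLATS1. Without siControl replicate 1, 3 genes of the list passed the threshold in siLATS1 in place of 1, with THBS1 among them and FYN not. All 3 had a lower level, a share of 8.57% against 5.66% of all tested genes in that fit. APOE, a lipoprotein ligand of the reelin receptors, had the highest log2 fold change of the list, 0.97, with a standard error of 1.11. Its siControl levels were 2.99, 87.5 and 101 CPM in replicates 1, 2 and 3, and its siLATS1 levels 44.1, 53.5 and 109 CPM. The positive sign thus rests on siControl replicate 1. Between siLATS1 and siLATS2 the only gene of the list called, with all samples, was THBS1, thrombospondin 1, a further ligand of VLDLR and LRP8. This was a share of 2.86% against 1.86% of all tested genes. THBS1 was at 477 to 725 CPM in siLATS1, 704 to 919 CPM in siControl and 926 to 1070 CPM in siLATS2. Its log2 fold change between siLATS1 and siLATS2 was -0.82 (standard error 0.18, limma p = 0.0019, adjusted p = 0.38, exact permutation p = 0.1). Against siControl it was -0.55 in siLATS1, with overlap, and 0.27 in siLATS2, without overlap, and neither was called. In siLATS2 against siControl no gene of the 35 was called.

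Partners and relatives of the other members gave few calls. Of 36 genes of regulated exocytosis, 2 were not analysed here and 22 passed the filter. In siLATS1 1 of these 22 was called, a share of 4.55% against 2.91% of all tested genes. It was SNAP25, the neuronal SNARE that drives vesicle fusion, at 5.01, 2.05 and 2.62 CPM in siControl and 8.10, 5.47 and 8.07 CPM in siLATS1 (log2 fold change 1.0, standard error 0.27, limma p = 0.0058, adjusted p = 0.41, exact permutation p = 0.1). In siLATS2 it was at 3.05, 3.35 and 4.2 CPM and overlapped siControl. Without siControl replicate 1 the siLATS1 value was 1.28, still called. In that fit 4 of the 22 genes were called, SNAP25, CPE, CPLX1 and UNC13D, 2 higher and 2 lower. This was a share of 18.2% against 5.66% of all tested genes. Between siLATS1 and siLATS2 SNAP25 was also called (log2 fold change 0.85, standard error 0.27, limma p = 0.014, adjusted p = 0.76, exact permutation p = 0.1). It was the only one of the 22, a share of 4.55% against 1.86% of all tested genes. CADPS2, the paralog of CADPS, had a log2 fold change of -0.32 (standard error 0.23) with overlap between siLATS1 and siControl. The granule cargo genes CHGB, SCG2, SCG3 and SCG5 were under 1 CPM in every sample.

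Of 22 genes of inward rectifier channels and their G proteins, 5 were not analysed here, 10 passed the filter and none was called in siLATS1 or siLATS2. KCNJ5, a channel subunit that pairs with KCNJ3, was at most at 0.0738 CPM in any library. Of 23 genes of the Ly6 family and nicotinic receptors, 11 were not analysed here, 5 passed the filter and none was called. LYPD6, a close relative of LYPD1, had a log2 fold change of 0.19 (standard error 0.23) in siLATS1. The 9 genes of the REST repressor complex all passed the filter and none was called, and REST itself had a value of -0.03 (standard error 0.28) on the log2 scale in siLATS1.

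**Figure D4:**
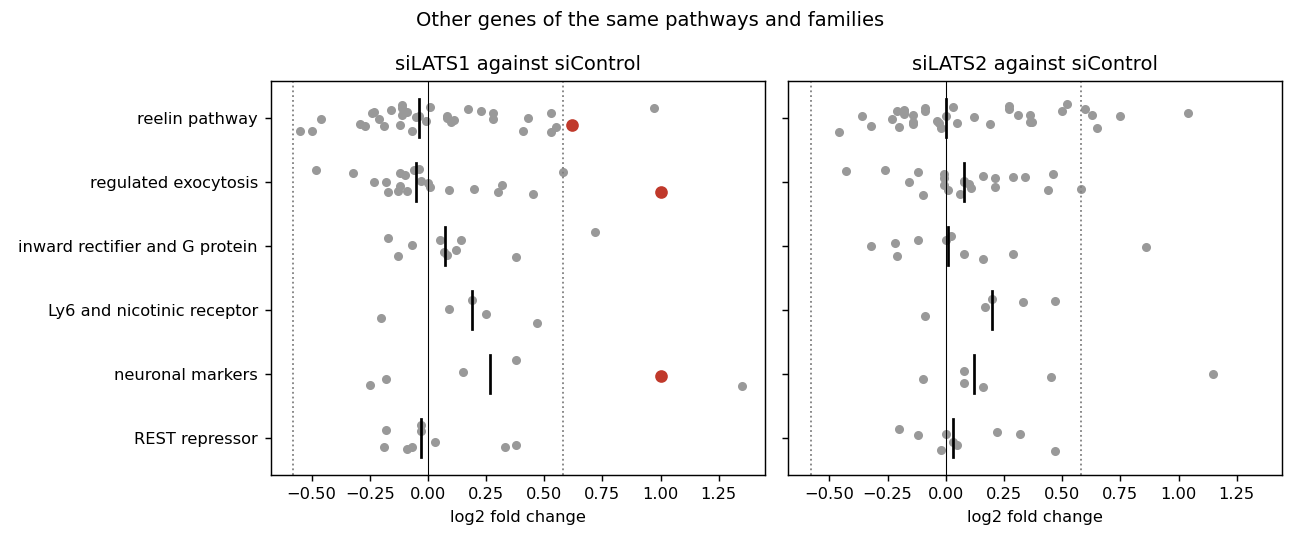
Log2 fold change (x axis) of the genes that passed the filter in 6 lists (y axis), namely the 4 lists of pathways and families, the neuronal markers and the REST repressor complex, in siLATS1 (left) and siLATS2 (right) against siControl. Red points passed the threshold, grey points did not, black lines are medians, and dotted lines mark 0.58 in either direction. FYN and SNAP25, which is in 2 of these lists, are the only genes of the 6 lists called, both in siLATS1.

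Markers of cell types were set beside these results. All 15 hepatocyte markers passed the filter, led by AFP at 4380 to 10000 CPM, ALB at 2960 to 6210 CPM and APOB at 1580 to 4570 CPM, and their sum was 14900 to 24700 CPM in siControl, 15400 to 20400 in siLATS1 and 13400 to 18200 in siLATS2. Of these 15, SERPINA1 and TTR were called higher and APOB and AHSG lower in siLATS1, a share of 26.7% against 2.91% of all tested genes, and none in siLATS2. Without siControl replicate 1 the siLATS1 calls were AHSG, lower, and APOH, higher, 13.3% against 5.66% of all tested genes. AHSG was then also called lower in siLATS2, a share of 6.67% against 0.535% of all tested genes. Of 20 neuronal markers, 3 were not analysed here, RBFOX3, NEFL and NEFM were at 0 in every sample, and 11 of 17, these 3 included, were under 1 CPM in every sample. Their sum was 74.8 to 235 CPM in siControl, 150 to 314 in siLATS1 and 141 to 244 in siLATS2, and was made up mostly of TUBB3 and MAP2, which overlapped between groups. Of the 6 that passed the filter 1 was called in siLATS1, SNAP25, as given above, a share of 16.7% against 2.91% of all tested genes. Without siControl replicate 1, SNAP25 and L1CAM were called, the latter lower, a share of 33.3% against 5.66% of all tested genes in that fit. The cells thus lacked most defining markers of neurons, and the 4 genes are named here by gene and not as a neuronal program.

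Since reelin is known from stellate cells, their markers were examined as well. Of 9 stellate and fibroblast markers, DCN, LRAT, ACTA2 and DES were under 1 CPM in every sample. The sum of all 9 was 136 to 275 CPM in siControl, 140 to 199 in siLATS1 and 167 to 235 in siLATS2, and none was called. LUM made up most of it, at 111 to 270 CPM. Of 7 endothelial and blood markers, CDH5, VWF, CD3E and HBB were under 1 CPM in every sample. The sum of all 7 was 4.48 to 5.10 CPM in siControl, 3.45 to 4.54 in siLATS1 and 3.21 to 4.07 in siLATS2. Of the 7, 2 passed the filter. PECAM1 was called lower in siLATS1, at 1.57, 0.822 and 0.643 CPM against 2.72, 2.45 and 1.70 CPM in siControl. This was a share of 50% against 2.91% of all tested genes. Without siControl replicate 1 it was also called, 50% against 5.66%.

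By Pearson's r of log2(CPM + 1) over the 9 samples, the genes whose pattern was most like that of RELN were SDC4 (0.976), GBP1 (0.976), LYPD1 (0.967), PTGFRN (0.965) and HABP2 (0.961), of 12901 tested genes. The 9 points share their libraries and scaling and fall into 3 groups, so r mostly reflects the order of the group means. SDC4, a cell surface proteoglycan, had the same order at a high level and with a small difference, from 263 to 266 CPM in siControl and 278 to 298 CPM in siLATS2 to 320 to 339 CPM in siLATS1. HABP2, a serine protease of plasma, was at 31.5 to 48.1 CPM in siControl, 52.9 to 57.9 CPM in siLATS2 and 144 to 203 CPM in siLATS1. In both genes the 3 groups did not overlap. GBP1, an interferon-induced GTPase, was at 0.747 to 0.924 CPM in siControl and 2.69 to 4.0 CPM in siLATS1, and its siLATS2 samples, at 0.870 to 1.54 CPM, overlapped siControl.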

How the data were processed

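RNA-seq values of 9 Huh7 samples, 3 per siRNA, were grouped by the sample labels. The authors prepared libraries with a stranded total RNA kit. The labels add ribosomal RNA depletion, while the study's methods speak of poly-A RNA, which would affect transcripts without a poly-A tail. Single-end reads with a unique hit on hg19 (GRCh37) were kept by the authors with STAR and counted over RefSeq exons with QuasR. The values they deposited are CPM per gene, in files of 1 sample each.

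All values (100.0%, within 0.01 of a read) were whole multiples of the worth of 1 read, so reads and depth (about 23550000 to 32190000 per sample) were recovered. Entrez numbers were named through the RefSeq gene table (GRCh38.p14, 20474 of 20575 matched). Unweighted TMM factors were taken from the CPM. The filter kept the 12901 genes that reached 1 CPM in 3 or more samples, and log2(CPM + 1) was fitted with limma 3.58.1 (R 4.3.3) over all 9 samples with a mean-variance trend. Adjusted p-values are those of Benjamini and Hochberg over all tested genes. Called genes passed the threshold of the study, an unadjusted p under 0.05 and a log2 fold change of at least 0.58. Exact permutation tests used scipy 1.17.1. The fit was tested on simulated data.

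Alternatives were edgeR 4.0.16 and DESeq2 1.42.0 on the recovered reads, other scalings, filters and pseudocounts, a replicate block, no trend, only the 6 samples compared, and leaving out each sample. By the rule for named genes, the 7 members were described in full, with at most 4 called genes of each list, the 3 highest markers of each cell type and the 5 genes most like RELN. Further genes (SRC, YES1, APOE, THBS1, CADPS2, CPE, CPLX1, UNC13D, L1CAM, APOH, KCNJ5, LYPD6, REST, GPR39 and markers or cargo genes at or near 0) were named for their role or after their values were seen. The members and lists were chosen with earlier results of these data known. Coordinates and transcript lengths are from GENCODE on GRCh37, and promoters from RefSeq. Results of some list genes are not reported here.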

Additional observations from a re-analysis of the deposited data

How the results depend on the processing

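Each of the 7 log2 fold changes kept its sign in all 3 comparisons under all 19 alternatives. The number of reelin receptor and adaptor genes called in siLATS1 against siControl was 1 (LRP8). It was 0 on CPM with no TMM factor, and 2 (LRP8 and DAB1) with a pseudocount of 0.1, with edgeR and with DESeq2. With 1 sample left out it ranged from 0 to 1, with 0 without siControl replicate 1 and without siLATS1 replicate 3. The number of the 7 genes called in siLATS2 against siControl was 1 (RELN). It was 2 (RELN and CADPS) with a pseudocount of 0.1, with edgeR and with DESeq2, and 0 to 1 with 1 sample left out, with 0 without siControl replicate 1 and without siLATS2 replicate 3. The number of other reelin pathway genes called in siLATS1 was 1 (FYN), 2 with edgeR, and 0 to 3 with 1 sample left out, with 3 without siControl replicate 1 or siLATS1 replicate 2, 2 without siControl replicate 3 or siLATS2 replicate 1, and 0 without siLATS1 replicate 3. No such gene was called in siLATS2, and no receptor or adaptor gene between siLATS1 and siLATS2, in any setting.

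The cause of these moves was not tested. RELN in siLATS1 was at 2.20, at 2.5 with a pseudocount of 0.1 and at 2.54 with DESeq2, and ranged from 2.09 to 2.27 with 1 sample left out. For DAB1 in siLATS1 the alternatives gave -0.78 to -0.37. The adjusted p of LRP8 in siLATS1 ran from 0.0017 with DESeq2 to 1, and that of RELN in siLATS2 from 0.59 to 1.

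Whether replicate numbers pair the samples cannot be told from how samples deviated from their group means. Across genes these deviations correlated at r from -0.87 to 0.92 in same-numbered samples. Differently numbered samples covered a similar range, from -0.91 to 0.87. Deviations within a group of 3 also sum to 0, so these r values are not independent. With the replicate block, 1 of the 3 receptor and adaptor genes was called in siLATS1 and 1 of the 7 genes in siLATS2, as without it. Over all genes 376 were called in siLATS1, 452 with edgeR, 527 with DESeq2, 288 with only the 6 samples compared, 730 without siControl replicate 1 and 234 without siLATS1 replicate 3. The calls split into 300 higher and 76 lower, and without siControl replicate 1 into 339 higher and 391 lower. After adjustment 13 passed, 5 with edgeR, 166 with DESeq2, 8 with at least 10 reads in every sample, 0 with the replicate block or only the 6 samples compared, and 0 to 40 with 1 sample left out (40 without siControl replicate 1, 14 without siLATS1 replicate 2, and 0 or 1 without any other). In siLATS2, 35 were called, 68 with edgeR, 70 with DESeq2, 72 with a pseudocount of 0.1, 22 with only the 6 samples compared, 69 without siControl replicate 1 and 11 without siLATS2 replicate 3. At this depth DAB1 and the siControl levels of CADPS and KCNJ3 rest on 22 to 47 reads per sample, which limits how small a difference can be seen.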
